A study of Mus musculus with 185 samples.

Results

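The genes described here code for proteins that fold, modify and export proteins made at the endoplasmic reticulum (ER). The 50 members were a list of ER chaperone, translocation and vesicle coat genes drawn up for this series with earlier results of the same data known, and all 50 are among the 17171 genes of the deposited table. Non-myocyte cells of mouse hearts were sorted as CD31- and CD45-negative, captured one by one, and sequenced after whole-transcript amplification. The mice were about 5 months old and carried a tamoxifen-inducible MerCreMer allele of Postn or of Tcf21 with a Cre-dependent R26-eGFP reporter, on a C57BL/6 background. Infarct cells came from hearts about a week after permanent ligation of the left coronary artery, and resident cells came from uninjured hearts. The 185 cells fall in 9 label classes and 4 captures.

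A cell that secretes collagen passes each chain through the ER membrane, where the leader peptide is cut off and sugars are added. Inside the ER, prolyl isomerases and chaperones act on the chains before coated vesicles carry the folded trimer to the Golgi. When unfolded protein builds up, the unfolded protein response raises the mRNA of many of these genes through the transcription factors XBP1, ATF6 and ATF4.

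The resident cells were 12 cells without Postn mRNA that are called plain resident cells here, 17 Tcf21-traced cells, 3 Tcf21-positive cells with Postn mRNA and 1 further cell with Postn mRNA, all in capture Jul24. Capture Jul29 held 24 Postn-negative infarct cells, 27 Postn-traced infarct cells and 6 of the 28 untraced Postn-positive cells. Capture Nov4 held 44 Tcf21-traced infarct cells and 19 untraced Postn-positive cells. Capture Nov11 held 29 untraced scar cells and the other 3 untraced Postn-positive cells. The labels rest in part on Postn mRNA in the same cells, and eGFP marks only cells in which tamoxifen reached the allele, so an untraced cell may belong to the traced lineage. Postn-traced cells came from mice with the Postn allele and Tcf21-traced cells from mice with the Tcf21 allele. The labels do not tie any cell to a mouse, so a class counts as 1 sample, no test was made, and ± is the SD between cells. Levels are log2(TPM + 1), and a gene counts as detected above 5 TPM.

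The reads of each cell were not known, and the number of genes detected stood in for depth. That number differed between classes, with medians of 2091.5 genes in the plain resident cells, 2264 in the resident Tcf21-traced, 2342 in the Postn-negative, 3643 in the Postn-traced, 3280.5 in the untraced Postn-positive, 3134 in the Tcf21-traced infarct and 3177 in the scar cells. It ranged from 141 to 5419 over all cells. Cells with fewer than 50% of the median of their capture, called shallow here, were 6 of the 29 scar cells, with 141 to 1560 genes, and 1 untraced Postn-positive cell. Without them the scar cells had a median of 3232 genes. Fibroblast markers marked 180 of the 185 cells, and 25 of the 29 scar cells, by at least 3 of 6 listed genes above 5 TPM, and endothelial markers marked 0. Smooth muscle markers marked 21 cells, of which 3 were Postn-traced, 6 untraced Postn-positive, 10 Tcf21-traced infarct and 2 scar cells. That list holds Acta2, whose product the study used to mark activated fibroblasts (myofibroblasts), so it does not tell them from smooth muscle cells. Myh11 and Cnn1, also on it, were at 0 in every untraced Postn-positive cell. Pericyte markers marked 1 Tcf21-traced infarct and 1 scar cell, cardiomyocyte markers 1 Postn-negative and 1 untraced Postn-positive cell, epicardial markers 1 Postn-negative cell and myeloid markers 1 scar cell, in a class where no cell held more than 108 TPM of them. Cycling markers marked 13 cells, 7 of them untraced Postn-positive and 6 Tcf21-traced infarct cells. In 1 of the 12 plain resident cells, 5 of 6 myeloid markers were detected and only 1 of 6 fibroblast markers, against its label. Values of that class that a result turns on are also given without this cell, which had the lowest member share of its class. Genes that respond to dissociation, such as Fos and Egr1, had median sums of 17900 TPM in the plain resident, 10100 in the resident Tcf21-traced, 9840 in the Postn-negative and 5500 in the Postn-traced cells. They had 3340 in the untraced Postn-positive, 3750 in the Tcf21-traced infarct and 4720 in the scar cells. Whether dissociation bears on the stress-responsive members was not tested.

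The most abundant member over all cells was Ppib, a collagen prolyl isomerase, at a mean of 9.61 ± 2.67, followed by the luminal chaperone genes Hspa5 at 9.35 ± 2.39 and Hsp90b1 at 9.16 ± 2.18. These 3 were detected in 95.1%, 96.2% and 97.3% of cells. Hyou1, which codes for a large luminal chaperone, was the least abundant at 0.53 ± 1.10 and was detected in 8 cells. A median of 35 members was detected per cell. Per class the median was 25.5 in the plain resident cells, 27 in the resident Tcf21-traced, 31 in the Postn-negative, 39 in the Postn-traced, 39.5 in the untraced Postn-positive, 38.5 in the Tcf21-traced infarct and 35 in the scar cells. Among these 7 classes, the 3 with the fewest genes detected also had the fewest members detected, and whether gene number accounts for this was not tested.

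**Figure D1:**
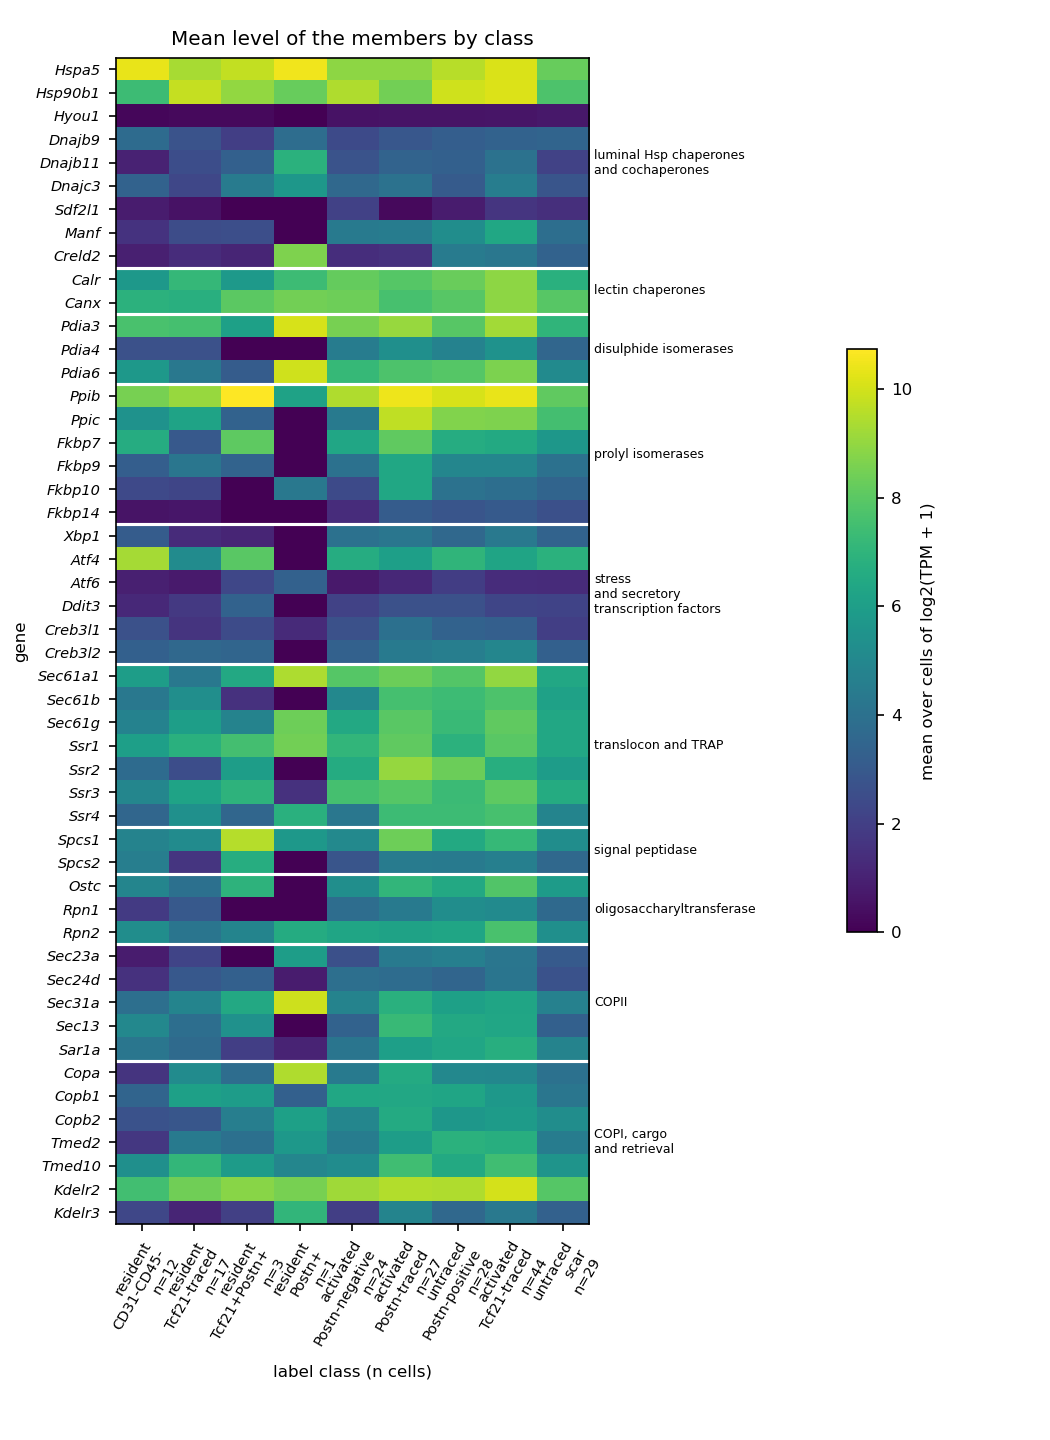
Mean level of each of the 50 members, in log2(TPM + 1), in each of the 9 label classes, with members grouped by role and n cells under each class; plain resident cells are marked resident CD31-CD45-. Ppib, Hspa5, Hsp90b1 and Kdelr2 were high in most classes, while Hyou1 was near 0 in all.

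The share of a cell's TPM taken by the members differed between classes too. In plain resident cells it ran from 0.846% to 2.06% with a median of 1.33%, or from 0.875% with a median of 1.37% without the cell with myeloid markers. In resident Tcf21-traced cells it ran from 0.879% to 1.92% with a median of 1.31%. In Postn-negative infarct cells it ran from 0.995% to 2.52% with a median of 1.46%, and in Postn-traced cells from 1.24% to 2.69% with a median of 1.62%. The widest ranges were those of the untraced Postn-positive cells, from 0.0767% to 2.99% with a median of 1.94%, and the scar cells, from 0.142% to 3.01% with a median of 1.63%. Each low end was a single cell, and the next lowest cells held 1.08% and 0.537%. Without these single cells the widest range was that of the Tcf21-traced infarct cells. Among whole classes the Tcf21-traced infarct cells had the highest median, 2.09%, in a range from 0.957% to 3.72%. The untraced Postn-positive class joins cells of 3 captures, and its 19 cells of Nov4, the capture of the Tcf21-traced infarct cells, had a median of 2.16%. Its 6 cells of Jul29, the capture of the Postn-traced cells, ran from 1.08% to 1.85%. Over the same classes the median share of the fibrillar collagens was 0.193%, 0.126%, 0.134%, 1.07%, 0.740%, 0.450% and 0.496%. Without the shallow cells the collagen median of the scar cells was 0.742% in place of 0.450%. The members thus spanned a smaller range of medians than their collagen clients, and the class with the most collagen mRNA, the Postn-traced, was not the class with the most member mRNA. The Postn-traced cells came from capture Jul29 and the Tcf21-traced infarct cells from Nov4, so class and capture cannot be told apart here. Among cells with 2000 to 3000 genes detected, a range chosen after the data were seen, the median member share was 1.46% in 20 Postn-negative, 1.62% in 5 Postn-traced, 1.46% in 11 resident Tcf21-traced and 1.72% in 17 Tcf21-traced infarct cells. It was 1.37% in 9 plain resident, 1.95% in 8 untraced Postn-positive and 1.83% in 6 scar cells, so in this range the Tcf21-traced infarct cells did not have the highest median.

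**Figure D2:**
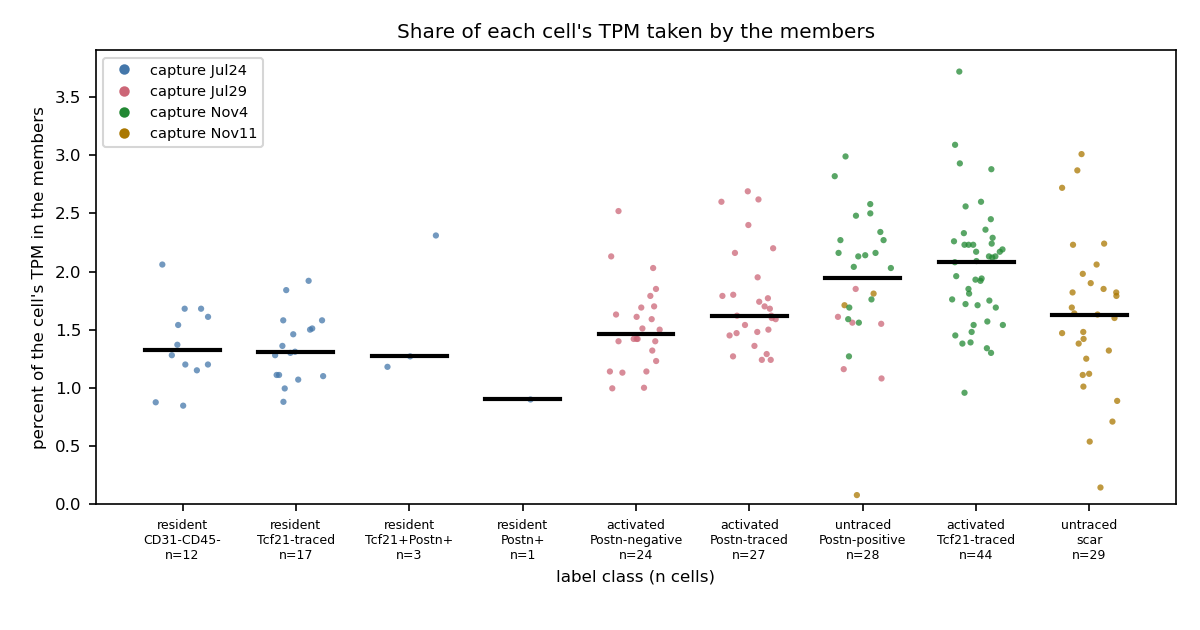
Share of each cell's TPM taken by the 50 members, in percent, by label class, with a point per cell coloured by capture and a black line at the class median. Among whole classes Tcf21-traced infarct cells had the highest median, 2.09%, while the 19 untraced Postn-positive cells of Nov4 had a median of 2.16%.

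Class means were then compared gene by gene, with a gene called when they differed by more than 1 log2 unit. Within capture Jul29, 24 of 46 members compared (52.2%) were higher in Postn-traced than in Postn-negative cells and 1 was lower, against 42.4% and 5.61% of all 4311 genes. The median difference was 1.06 for the members and 0.79 for all genes. The classes had median gene numbers of 3643 and 2342, and the counts depended on the scale and the cells used. When the log2 was taken of the mean TPM, 7 members (15.2%) were higher and 3 lower, against 18.9% and 16.1% of all genes. After centring, which set the median of a cell's detected genes to a common value, 31 members (67.4%) were higher and 0 lower, against 61.8% and 3.36%. In the 5 traced and 20 negative cells with 2000 to 3000 genes, 12 of 43 members (27.9%) were higher and 16 lower, with 21.6% and 35.4% of all genes.

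The Tcf21-traced classes of infarct and uninjured hearts were compared next. Of 47 members compared, 39 (83%) were higher in Tcf21-traced infarct than in resident Tcf21-traced cells and 0 were lower, against 47.9% and 5.94% of all genes. The median difference was 2.10 for the members and 0.94 for all genes. From mean TPM, 19 members (40.4%) were higher and 0 lower, against 24.2% and 16.8% of all genes. After centring, 42 (89.4%) were higher and 0 lower, against 63.5% and 3.17%. In the 17 infarct and 11 resident cells with 2000 to 3000 genes, 22 of 46 (47.8%) were higher and 4 lower, against 24.9% and 19.8%. The share of members above 1 log2 unit thus exceeded that of all genes in each of these settings. The infarct cells came from capture Nov4 and the resident cells from Jul24, so injury and capture cannot be told apart.

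Against the same resident Tcf21-traced cells, the Postn-traced cells of capture Jul29 had 34 of 47 members (72.3%) higher and 1 lower, against 49.7% and 5.61% of all genes. From mean TPM these were 13 members (27.7%) and 3, against 24.3% and 18.8% of genes, and after centring 41 (87.2%) and 0, against 66.5% and 3.07%. In cells with 2000 to 3000 genes, 5 traced and 11 resident, 15 of 46 members were higher and 14 lower, and 23% and 35.1% of genes. These comparisons share their resident cells, and the Postn-traced cells also enter the comparison within Jul29. Injury, capture and the traced allele differ together between Postn-traced and resident Tcf21-traced cells and cannot be told apart.

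Postn-negative infarct cells had 20 of 44 members (45.5%) higher and 6 lower than plain resident cells, against 30.7% and 11.4% of all genes, with medians of 0.92 and 0.40. Without the cell that held myeloid markers, 21 (47.7%) were higher and 6 (13.6%) lower, against 29.1% and 13.6% of all genes, with medians of 0.84 and 0.32. From mean TPM 13 (29.5%) were higher and 6 lower, against 25.9% and 16.7% of genes. Gene numbers were closer here, 2342 and 2091.5, while capture and injury again cannot be told apart. The 2 classes of resident cells, from the same capture, differed in mixed directions, with 14 of 43 members (32.6%) higher and 13 (30.2%) lower in the Tcf21-traced, against 26.1% and 15.8% of all genes. From mean TPM 9 (20.9%) were higher and 8 (18.6%) lower, against 24.1% and 16.5%. Leaving out the cell with myeloid markers left the counts at 14 and 13, against 24.2% and 17.6% of all genes. Within capture Nov4, 6 of 48 members (12.5%) were higher and 2 lower in untraced Postn-positive than in Tcf21-traced cells, against 11.1% and 8.90% of all genes. From mean TPM 3 were higher and 2 lower, against 9.51% and 16.6%, and after centring 10 and 0, against 18.5% and 4.85%. In the 5 untraced Postn-positive and 17 Tcf21-traced cells with 2000 to 3000 genes, 16 of 46 members (34.8%) were higher and 11 (23.9%) lower, against 24.5% and 27.2% of all genes. The resident cells, the Postn-negative cells and the Tcf21-traced infarct cells of these comparisons are those already used.

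**Figure D3:**
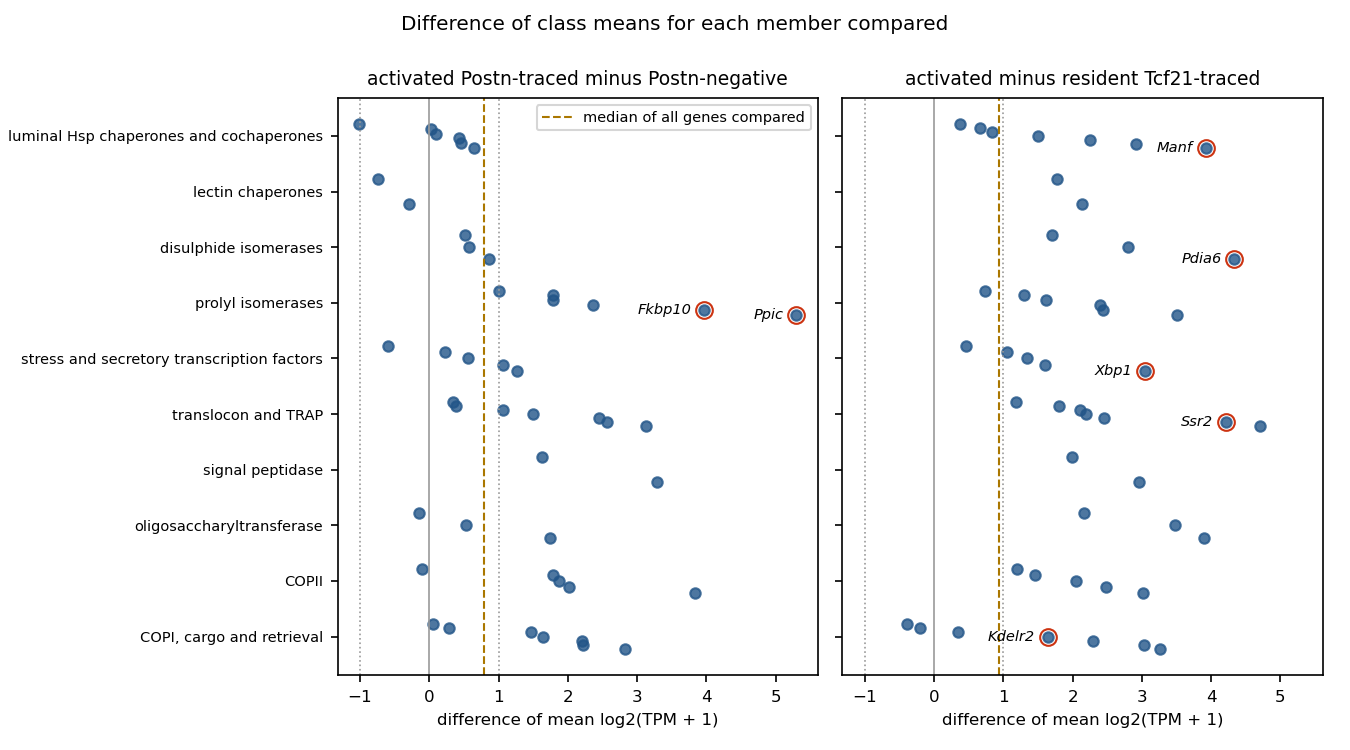
Difference of class means, in log2(TPM + 1), of each member compared, by role, for Postn-traced minus Postn-negative cells (left) and Tcf21-traced infarct minus resident Tcf21-traced cells (right). Named members in red rings differed by more than the SD of either class, the dashed line is the median of all genes compared, and dotted lines mark 1 log2 unit.

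Prolyl isomerases, which turn the peptide bonds before proline that slow the folding of collagen, included the 2 members furthest apart between Postn-traced and Postn-negative cells. Of 6 compared, 5 (83.3%) were called higher in traced cells, against 42.4% of all genes, with a median difference of 2.07. The median share of TPM in this role was 0.384% in Postn-traced and 0.204% in Postn-negative cells. Ppic, which codes for cyclophilin C, ran from 7.67 to 11.22 with a median of 9.76 in traced cells. In negative cells it ran from 0 to 9.95 with a median of 2.96. The means were 9.71 ± 1.04 and 4.42 ± 4.41, a difference of 5.30 that exceeded both SDs, and mean TPM was 1050 and 278, a ratio of 3.78. It was detected in all 27 traced cells (95% interval 87.2% to 100%) and in 12 of 24 negative cells (29.1% to 70.9%). Intervals are exact Clopper-Pearson intervals and cover counting error only.

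Fkbp10, which codes for FKBP65, an isomerase and chaperone of type I procollagen, was the other member whose difference exceeded both SDs within capture Jul29. It ran from 0 to 10.80 with a median of 6.36 in traced cells, and from 0 to 8.60 with a median of 0.54 in negative cells. The means of 6.39 ± 2.70 and 2.42 ± 3.13 were 3.97 apart, and mean TPM differed by a ratio of 5.45. Detection was 25 of 27 (75.7% to 99.1%) and 9 of 24 (18.8% to 59.4%). Among cells with 2000 to 3000 genes the differences were 5.01 for Ppic and 4.28 for Fkbp10. These 2 members were named for their gap in the same cells, and only 5 traced cells entered, so whether gene number accounts for the gap was not tested. Fkbp9, which codes for a related luminal isomerase, did not keep its gap, with a difference of 2.36 in all cells and -0.85 in that range, and Ppib went to -0.24.

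In the remaining infarct classes the median of Ppic was 9.44 in untraced Postn-positive, 9.37 in Tcf21-traced infarct and 9.65 in scar cells, each in a range from 0 to above 11. Without the shallow cells the scar median was 10.06, in a range from 5.56 to 11.17. Resident cells had 7.35, or 8.54 without the cell with myeloid markers, and 7.14, between these and the Postn-negative cells. Between Tcf21-traced infarct and resident Tcf21-traced cells of like gene number Ppic differed by 0.73, with means of 7.60 and 6.87, and was not called. The medians of Fkbp10, 4.46, 4.08 and 3.62 in the same infarct classes, lay below the 6.36 of Postn-traced cells, and the median was 0 in both main resident classes. The 4.46 of the untraced Postn-positive cells pools captures. Its 19 cells of Nov4 had a median of 6.05, close to that of the Postn-traced cells, while most of its 6 cells of Jul29 were at 0. Detection of Fkbp10 was 17 of 28, 26 of 44 and 15 of 29, or 14 of 23 scar cells without the shallow ones, in those infarct classes and 4 of 12 and 6 of 17 in the resident ones. Between Tcf21-traced infarct and resident Tcf21-traced cells of like gene number Fkbp10 differed by 0.39, with means of 3.07 and 2.68, and was not called. Fkbp7, which codes for another luminal isomerase, was 8.13 ± 2.03 in Postn-traced and 2.99 ± 4.19 in resident Tcf21-traced cells. That difference of 5.14 and the 4.15 of Fkbp10 exceeded both SDs, and at like gene number they were 4.65 and 3.93. Ppib, whose product also serves in prolyl 3-hydroxylation of collagen, was high in both Jul29 classes, at 10.45 ± 1.67 and 9.45 ± 1.66, and its difference of 1.0 was within the spread.

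**Figure D4:**
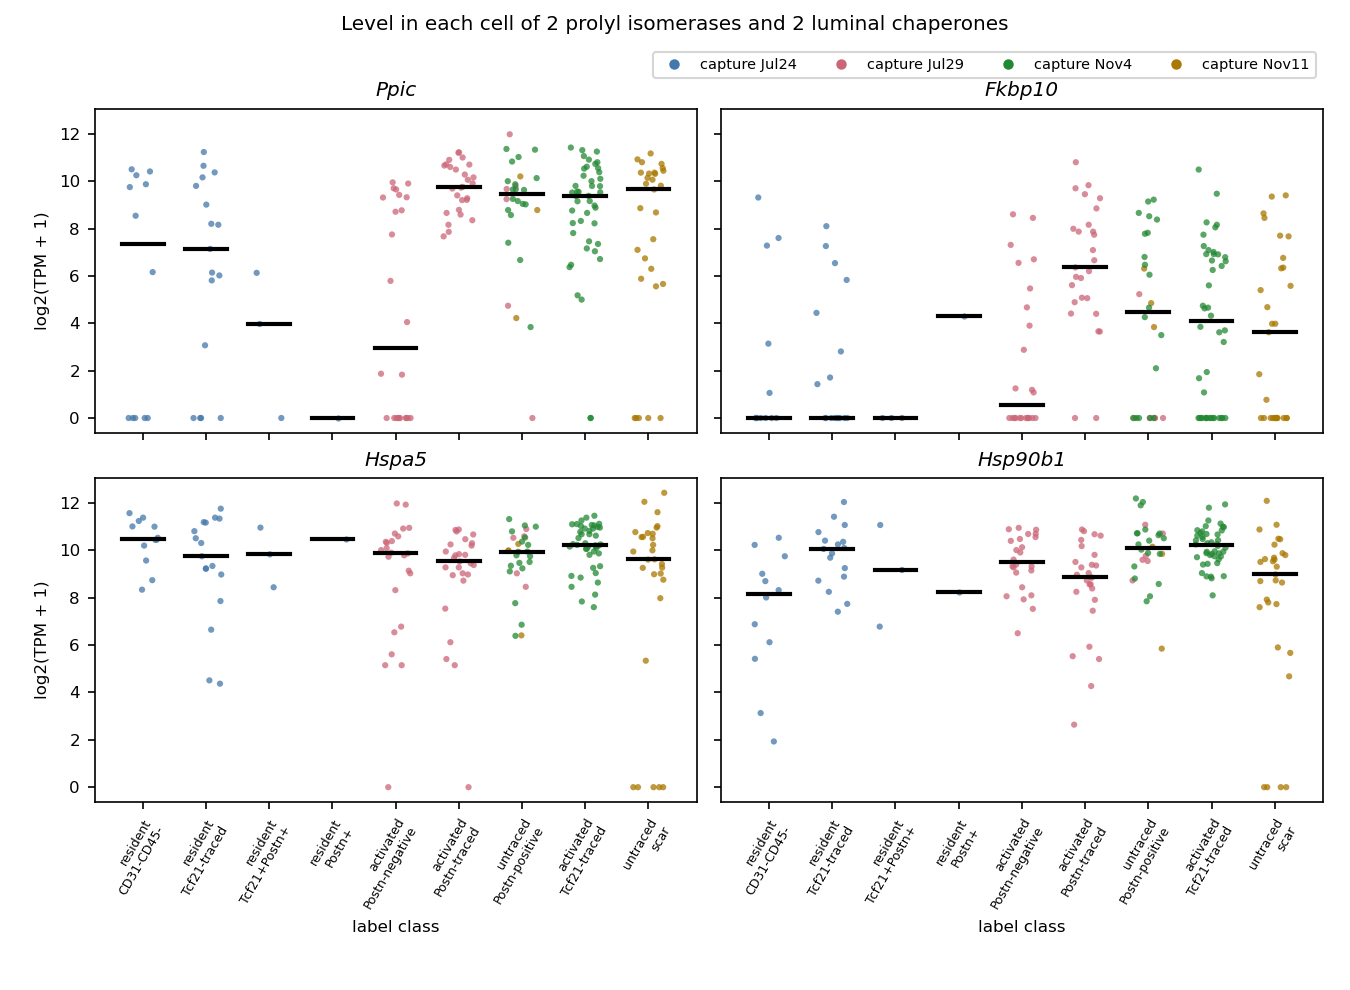
Level in each cell, in log2(TPM + 1), of the isomerase genes Ppic and Fkbp10 and the chaperone genes Hspa5 and Hsp90b1 by label class, with a point per cell coloured by capture and a black line at the median. Postn-traced cells lie above Postn-negative cells in Ppic (means 9.71 and 4.42) and not in Hspa5 (8.90 and 8.89).

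Luminal chaperones bind unfolded chains of many kinds. Of 6 compared between Postn-traced and Postn-negative cells, 0 were called higher and 1 lower, against 42.4% and 5.61% of all genes, with a median difference of 0.26 against 0.79. At like gene number 1 of 5 was higher, Dnajb11 at 3.34, and 3 were lower, Manf at -2.05, Hspa5 at -1.13 and Hsp90b1 at -1.06, against 21.6% and 35.4% of all genes, with a role median of -1.06 against -0.33. Their median share of TPM was 0.162% in traced and 0.258% in negative cells. Hspa5, which codes for BiP, the sensor chaperone of the unfolded protein response, ran from 0 to 10.88 with a median of 9.53 in traced and from 0 to 11.98 with a median of 9.89 in negative cells. Its means were 8.90 ± 2.35 and 8.89 ± 2.75. Hsp90b1, which codes for GRP94, was the member called lower, from 2.64 to 10.88 with a mean of 8.46 ± 2.07 in traced and from 6.50 to 10.95 with a mean of 9.47 ± 1.20 in negative cells. The difference of -1.01 was within the SD, and the ratio of mean TPM was 0.693. The lectin chaperone genes Calr and Canx, whose products hold sugar-bearing chains, were not called, at -0.30 and -0.74, with a median share of 0.0667% in traced and 0.118% in negative cells. At like gene number both were called lower, at -1.18 and -2.11.

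Between resident and infarct Tcf21-traced cells 4 of 7 luminal chaperones (57.1%) were higher, against 47.9% of all genes, and Hspa5, Hsp90b1 and Dnajb9 were within 1 log2 unit. The count was again 4 of 7 at like gene number, against 24.9% of all genes, but there Hspa5 at 1.44 and Dnajb9 at 1.10 were called higher and Dnajb11 turned to -1.0. Over all cells Hspa5 was 9.32 ± 2.28 in resident and 10.14 ± 0.98 in infarct cells, and Hsp90b1 was 9.78 ± 1.27 and 10.15 ± 0.81. Manf, which codes for a small secreted ER stress protein, rose from 2.48 ± 3.31 to 6.40 ± 2.91, a difference of 3.92 that exceeded both SDs. It was detected in 6 of 17 resident (14.2% to 61.7%) and 37 of 44 infarct cells (69.9% to 93.4%), and in the range of like gene number the difference was 2.27. Calr and Canx were both called higher, with a median of 1.95, while at like gene number Calr went to 0.64 and Canx to 1.36. Hsp90b1 was lower in the plain resident cells, at 7.34 ± 2.74, than in either the resident Tcf21-traced or the Postn-negative cells, and at 7.25 ± 2.86 without the cell with myeloid markers. Hspa5 stood in the other order, at 10.37 ± 1.02 in those resident cells and 8.89 ± 2.75 in the Postn-negative, a difference of -1.49, or of -1.48 without that cell. These differences were smaller than the larger SD of each pair. Sdf2l1 and Hyou1, whose products assist BiP, passed the gene filter in none of the comparisons, and the stress gene Creld2 was detected in 25 of 44 Tcf21-traced infarct cells against 3 of 17 resident Tcf21-traced cells. At like gene number Creld2 differed by 0.77 between these classes and was not called.

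The promoters of the members were searched for the elements through which the unfolded protein response acts. The search covered 300 bases around each annotated start, in 32851 windows of the RefSeq annotation of build GRCm38.p6, and reached 39 of the 50 members. Those without a window were Ppic, Fkbp10, Manf, Sec61a1, Ssr2, Kdelr2, Hyou1, Atf6, Tmed2, Creb3l1 and Ostc. The ER stress response element, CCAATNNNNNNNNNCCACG on either strand, where N is any base, was in 39 windows (0.119%) and in 7 members, namely Calr, Canx, Creld2, Dnajc3, Hsp90b1, Hspa5 and Pdia6. Its second form, ATTGGNCCACG, was in 12 windows (0.0365%) and in 1 member, Dnajb11. The XBP1 element TGACGTGG was in 222 windows (0.676%) and in 5 members, Copb1, Copb2, Kdelr3, Sec23a and Sec24d. All of these contain CCACG on one strand or the other, so the searches are not independent. Below are stretches of 60 bases before the start on the strand of the gene, with the element in capitals, which reads as written or, where it opens with CGTGG or closes with CGTCA, on the opposite strand. They are shown so that the bases between and around the letters searched for can be read, which the search did not fix. The stretches lie at chr2:34772005-34772064 on the plus strand for Hspa5, chr10:86705617-86705676 on the minus strand for Hsp90b1, which has 2 matches, chr8:84847054-84847113 on the minus strand for Calr, chr11:50325779-50325838 on the minus strand for Canx, chr12:17266471-17266530 on the plus strand for Pdia6 and chr15:79516348-79516407 on the plus strand for Kdelr3.
Hspa5: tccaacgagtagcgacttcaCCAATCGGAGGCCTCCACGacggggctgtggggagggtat
Hsp90b1: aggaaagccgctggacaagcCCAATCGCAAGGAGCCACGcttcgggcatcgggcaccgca
Calr: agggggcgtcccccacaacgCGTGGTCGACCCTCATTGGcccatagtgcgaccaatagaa
Canx: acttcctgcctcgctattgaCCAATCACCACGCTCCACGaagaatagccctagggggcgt
Pdia6: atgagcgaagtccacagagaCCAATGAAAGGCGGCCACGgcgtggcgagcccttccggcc
Kdelr3: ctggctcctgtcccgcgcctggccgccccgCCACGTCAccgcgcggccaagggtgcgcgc

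A match describes a sequence and does not show that a factor binds it, and a promoter without a match may still respond. Of the members with the ER stress response element, 0 of 6 were higher and 1 was lower in Postn-traced than in Postn-negative cells, against 42.4% and 5.61% of all genes, with a median of -0.14. Of those with the XBP1 element 3 of 5 were higher, with a median of 1.64, and of the 26 with neither of these 2 elements, Dnajb11 among them, 15 were higher, with a median of 1.28. At like gene number those with the XBP1 element were Copb1 at -1.91, Copb2 at -1.47, Sec23a at -0.26, Sec24d at -3.99 and Kdelr3 at 0.18. Those with the ER stress response element were Calr at -1.18, Canx at -2.11, Hsp90b1 at -1.06, Hspa5 at -1.13, Pdia6 at -1.42 and Dnajc3 at 0.39. In that range 21.6% of all genes were higher and 35.4% lower. Over all cells the groups were closer between resident and infarct Tcf21-traced cells, with 5 of 7, 4 of 5 and 21 of 26 higher, against 47.9% of all genes, and medians of 2.13, 2.05 and 1.90. Mean level and depth were not matched between the groups, and whether the elements bear on these differences was not tested.

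Disulphide isomerases, which form and exchange the cystine bonds of procollagen and other cargo, were called in none of 3 cases within Jul29, against 42.4% of all genes higher and 5.61% lower, at 0.52 for Pdia3, 0.57 for Pdia6 and 0.86 for Pdia4. At like gene number 0 were higher and Pdia6 was lower, at -1.42, against 21.6% and 35.4% of all genes. All 3 were higher in Tcf21-traced infarct than in resident Tcf21-traced cells, against 47.9% of all genes, and 2 of 3 at like gene number, where Pdia4 went to 0.63. Their median share of TPM was 0.195% against 0.0695%. Pdia6, whose product also switches off stress sensors, ran from 0 to 10.31 with a median of 3.0 in resident and from 0 to 11.74 with a median of 9.53 in infarct cells. The difference of means was 4.33, from 4.30 ± 4.21 to 8.63 ± 2.71, and 3.70 at like gene number. Detection was 10 of 17 (32.9% to 81.6%) and 41 of 44 (81.3% to 98.6%). Its median was 6.87 in plain resident, or 7.77 without the cell with myeloid markers, and 6.06 in scar cells, or 8.34 without the shallow ones. It was 8.76 in Postn-negative, 9.26 in Postn-traced and 8.97 in untraced Postn-positive cells. By median the resident Tcf21-traced cells were thus the lowest of these classes. By mean they differed by -1.94 from the plain resident cells without the one with myeloid markers, which was within both SDs. Detection in those plain resident cells was 7 of 11, near that of the resident Tcf21-traced cells.

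The mRNA of the transcription factors says little on their activity, since ATF6 and XBP1 are controlled by cleavage and splicing that gene-level values do not show. Xbp1 was 1.30 ± 2.44 in resident Tcf21-traced and 4.34 ± 3.01 in Tcf21-traced infarct cells, a difference of 3.04 that exceeded both SDs and was 2.69 at like gene number. It was detected in 4 of 17 (6.81% to 49.9%) and 31 of 44 cells (54.8% to 83.2%). Within Jul29 it differed by 0.22. Atf4, which acts in the amino acid and ER stress responses, was highest in the plain resident cells, where it ran from 7.13 to 11.65 with a mean of 9.28 ± 1.40 and was found in all 12. It was 5.19 ± 4.39 in resident Tcf21-traced cells, a difference of -4.09 within the larger SD, or of -4.13 without the cell with myeloid markers and -2.36 at like gene number, and 6.64 ± 4.24 in Postn-negative cells. The class with the most Atf4 also had the largest dissociation response, 17900 TPM, or 17000 without that cell, and whether that accounts for it was not tested. Creb3l1, whose product OASIS drives collagen genes, and Creb3l2 were higher in Postn-traced than in Postn-negative cells by 1.26 and 1.06, both within the spread, and by 0.21 and 0.72 at like gene number. Creb3l1 was detected in 15 of 27 and 9 of 24 of these cells. Ddit3, which codes for CHOP, was detected in 57 and Atf6 in 42 of the 185 cells.

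Translocon and TRAP genes code for the channel and the associated proteins through which chains enter the ER. Within Jul29, 5 of 7 (71.4%) were higher in traced cells, against 42.4% of all genes, with a median of 1.49, and their share of TPM was 0.438% against 0.227%. Ssr4 differed by 3.13, Sec61b by 2.56 and Ssr2 by 2.45, all within the larger SD. At like gene number 2 of the 7 were higher and 3 were lower, against 21.6% and 35.4% of all genes, with a median of -0.44 against -0.33. Sec61a1 went to -4.06 there, while Ssr2 at 1.80 and Ssr4 at 2.18 were the 2 higher. The ratios of mean TPM of Ssr2 and Ssr4 over all cells were 2.38 and 2.36. In infarct against resident Tcf21-traced cells all 7 were higher, against 47.9% of all genes, with a median of 2.20 and a share of 0.463% against 0.214%. Of the 7, 3 were higher at like gene number, against 24.9% of all genes, with a median of 0.80. Sec61a1, which codes for the pore of the channel, ran from 0 to 10.43 with a median of 1.16 in resident cells, where 8 of 17 were positive. In infarct cells it ran from 0 to 11.40 with a median of 9.98, and 40 of 44 were positive. The means differed by 4.71, and by 3.79 at like gene number. Ssr2 was 2.53 ± 3.10 in resident Tcf21-traced, 6.74 ± 4.15 in Tcf21-traced infarct and 9.03 ± 2.19 in Postn-traced cells, with ratios of mean TPM of 12.2 and 17.5 to the resident cells. Its difference of 4.21 between the Tcf21-traced classes was 1.80 at like gene number. Between Postn-traced and resident Tcf21-traced cells all 7 genes of this role were higher, against 49.7% of all genes. At like gene number 2 of these were higher and 3 lower, against 23% and 35.1% of all genes, with a role median of -0.89.

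The signal peptidase genes Spcs1 and Spcs2, whose products help to cut off the leader peptide, were both higher in Postn-traced than in Postn-negative cells, against 42.4% of all genes, and were 1.16 and 1.37 apart at like gene number. Spcs1 was 8.35 ± 2.07 in traced and 5.06 ± 4.10 in negative cells, a difference of 3.29. Genes of the oligosaccharyltransferase, which adds sugars to the incoming chain, did not move together within Jul29, where Rpn2 differed by -0.15 and 1 of 3 (33.3%) was higher, against 42.4% of all genes. At like gene number 1 was higher and 2 were lower, Rpn2 at -3.56 and Rpn1 at -2.22, against 21.6% and 35.4% of all genes. In Tcf21-traced infarct cells all 3 were higher than in resident ones, against 47.9% of all genes, with a median of 3.48, and of 2.38 at like gene number. Ostc led them, with 3.94 ± 4.16 in resident and 7.83 ± 3.32 in infarct cells and a difference of 3.90, or 3.05 at like gene number. Over all cells the addition of sugars thus had the largest role median between infarct and resident Tcf21-traced cells, followed by disulphide exchange at 2.80. At like gene number the transcription factors came second, at 1.42, with disulphide exchange at 1.40. The prolyl isomerases, with a median of 2.01 over all cells, had 1 of 6 higher and 1 lower at like gene number, against 24.9% and 19.8% of all genes.

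COPII proteins coat the vesicles that leave the ER, and Sec23a and Sec24d have been linked to the export of procollagen. Of the 5 coat members 4 (80%) were higher in Postn-traced than in Postn-negative cells, against 42.4% of all genes, with a median of 1.87. At like gene number 1 was higher and 1 lower, against 21.6% and 35.4% of all genes, with a median of -0.26 against -0.33. Over all cells Sec13, part of the outer coat, had the widest gap, with medians of 8.53 and 0, means of 7.23 ± 3.19 and 3.39 ± 4.14 and a difference of 3.84. It was detected in 24 of 27 (70.8% to 97.6%) and 10 of 24 cells (22.1% to 63.4%). At like gene number the Sec13 difference was 0.14 and that of Sec23a, 1.78 in all cells, was -0.26, while Sec31a, another part of the outer coat, had 2.01 in all cells and 2.31 in that range but -0.07 from mean TPM. Sec24d, which selects cargo, differed by -0.11 in all cells and by -3.99 in that range, where the mean of the 5 traced cells was 0. Against resident Tcf21-traced cells, Sec23a was 2.05 and Sec24d 1.20 higher in the Tcf21-traced infarct cells, and 1.74 and 0.86 at like gene number.

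Retrieval and COPI genes serve the way back from the Golgi, in which KDEL receptors return escaped chaperones. Kdelr3 was 4.84 ± 3.37 in Postn-traced and 2.01 ± 3.15 in Postn-negative cells, and detected in 19 of 27 (49.8% to 86.2%) and 6 of 24 (9.77% to 46.7%). Its difference was 2.83 in all cells and 0.18 at like gene number. In resident Tcf21-traced cells Kdelr3 was 1.09 ± 2.01 and found in 3 of 17, which put Tcf21-traced infarct cells 3.26 and Postn-traced cells 3.74 above them, the latter beyond both SDs, and 1.37 and 1.13 at like gene number. Kdelr2, the abundant receptor, ran from 5.88 to 10.78 with a mean of 8.41 ± 1.34 in resident and from 6.05 to 11.21 with a mean of 10.05 ± 0.91 in Tcf21-traced infarct cells. This difference of 1.64 was the smallest that exceeded both SDs, and it was 1.41 at like gene number. The COPI coat genes did not move together in that comparison, with Copb2 at 3.03, Copa at -0.20 and Copb1 at -0.39, and with 2.07, -3.28 and -1.53 at like gene number. Copa and Copb1 were 3.56 and 2.66 higher in resident Tcf21-traced than in plain resident cells, both within the larger SD, and 3.41 and 3.20 higher without the cell with myeloid markers.

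Counting all roles, 2 members differed by more than both SDs between the Jul29 classes, Ppic and Fkbp10. Between infarct and resident Tcf21-traced cells there were 5, Manf, Pdia6, Xbp1, Ssr2 and Kdelr2, and between Postn-traced and resident Tcf21-traced cells 4, Fkbp7, Fkbp10, Ssr2 and Kdelr3. The other comparisons had 0, except that Fkbp7 was beyond both SDs, at -4.26, between resident Tcf21-traced and plain resident cells without the one with myeloid markers. Every other member difference therefore lay within the spread between cells of at least 1 of its classes.

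Of 69 further genes of the pathway in the table, 50 were compared within Jul29, and 27 (54%) were higher and 1 lower in traced cells, against 42.4% and 5.61% of all genes, with a median of 1.15. The largest were Fkbp11 at 3.49 and the signal recognition particle genes Srp14 at 3.23 and Srp72 at 2.67, with ratios of mean TPM of 6.43, 0.973 and 1.46. Ppp1r15a, whose product ends the stress block on translation, was the one lower, at -1.30. For infarct against resident Tcf21-traced cells 41 of 56 (73.2%) were higher and 1 lower, against 47.9% and 5.94% of all genes, with a median of 1.49, led by Ddost at 4.07, and again Ppp1r15a was the one lower, at -1.79. The medians of all genes were 0.79 and 0.94, and the further genes were not compared at like gene number.

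Summed member TPM and summed fibrillar collagen TPM (Col1a1, Col1a2, Col3a1, Col5a1 and Col5a2) were compared across the cells of each class on the log2 scale. The points of a class share a capture, except for the untraced Postn-positive cells, and both sums are parts of the same fixed total, so these r values are descriptions. Pearson r was 0.57 over 12 plain resident, 0.58 over 17 resident Tcf21-traced and 0.52 over 24 Postn-negative cells. The value of 0.57 leaned on the cell with myeloid markers, whose collagens took 0.000539% of TPM, and fell to 0.22 without it. In Postn-traced cells, where collagen mRNA was highest, r was 0.22 over 27 cells, and in Tcf21-traced infarct cells it was 0.38 over 44. Given gene number, the partial r of these 2 classes was 0.11 and 0.20. The order of the classes depended on the measure. From averaged log2 values r was 0.44 in resident Tcf21-traced, 0.41 in Postn-negative, 0.38 in Postn-traced and 0.54 in Tcf21-traced infarct cells.

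Scar cells had the opposite sign, at -0.58 over 29 cells, and untraced Postn-positive cells had -0.32 over 28. Each of these had a cell with very low member share and very high collagen share, both from capture Nov11. The untraced Postn-positive cell had 0.0767% of TPM in members, 5.44% in collagens and 1521 genes detected, and r was 0.37 without it. The scar cell had 0.142% in members, 4.66% in collagens and 1801 genes detected, and r was -0.31 without it. Both held 4 fibroblast markers. For the scar cells the sign also depended on the measure, with 0.61 when log2 values were averaged in place of summing TPM, so no direction can be given for that class.

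**Figure D5:**
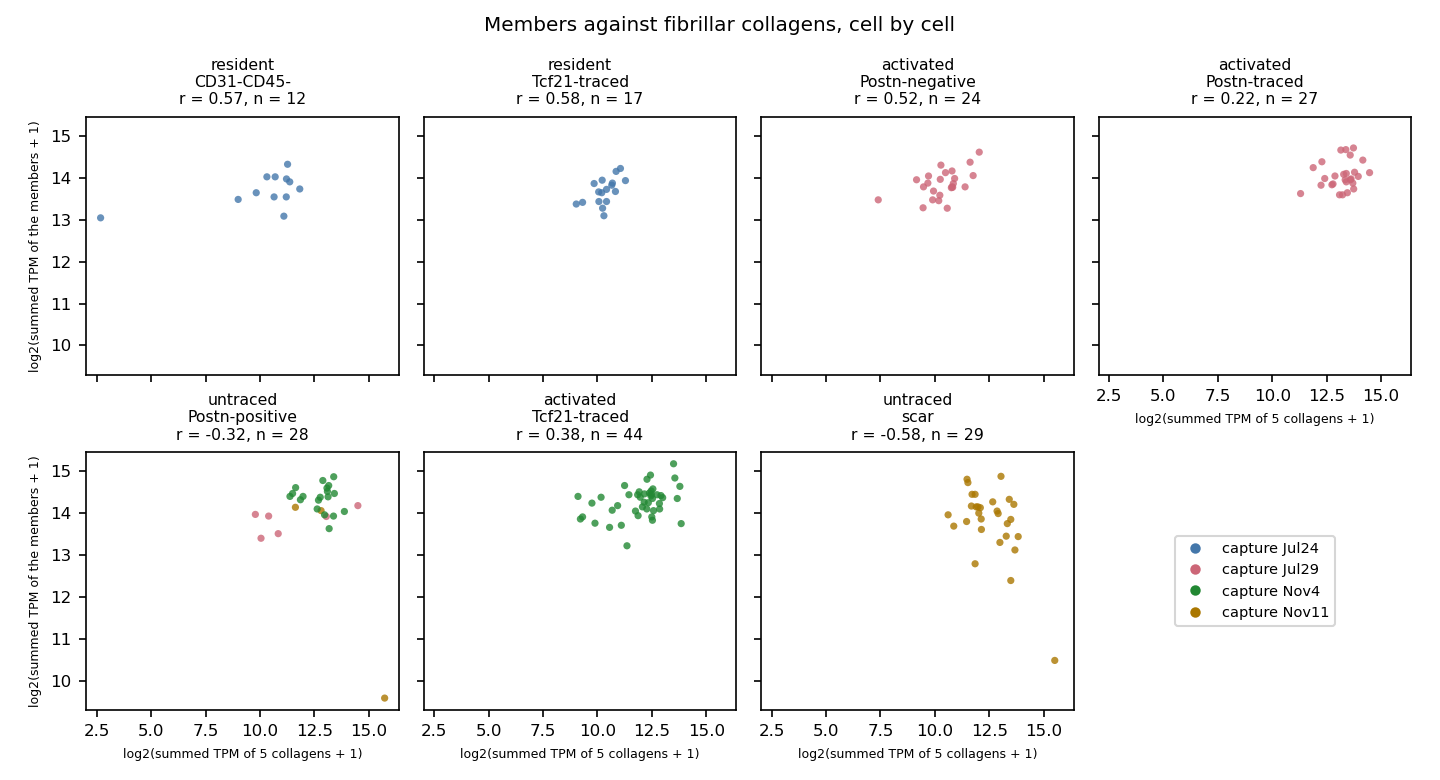
Summed member TPM against summed fibrillar collagen TPM, both as log2, with a point per cell and a panel for each of 7 label classes with its Pearson r and n. The values of r run from -0.58 in scar cells to 0.58 in resident Tcf21-traced cells.

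Member by member, the genes that went most closely with collagen differed between classes. In Tcf21-traced infarct cells Ssr2 had r of 0.67, Ssr4 0.60, Tmed10 0.56 and Ppib 0.52, and 37 of 44 members had r above 0, with a median of 0.17. Over all genes the median was 0.15 and 76% were above 0. Ssr2 itself had r of 0.68 with gene number, and whether gene number accounts for its r with collagen was not tested. In Postn-traced cells Sec61a1 had 0.53 and Fkbp9 0.52, with 32 of 42 members above 0, a median of 0.14 against 0.08 for all genes, and 63.8% of genes above 0. The r of Sec61a1 with gene number was 0.69 in these cells, and whether gene number accounts for its r with collagen was not tested. Creb3l1 reached 0.41 there. In Postn-negative cells Sec24d had 0.49 and Calr 0.41, and in scar cells Fkbp10 had 0.61. Of the members in scar cells, 13 of 37 had r above 0, with a median of -0.04. Over all genes the scar median was 0.01, and 53% were above 0. The scar values include the 6 shallow cells and the cell of lowest member share, and were not taken without them. The lowest in their own class were Atf4 at -0.24 and Hspa5 at -0.21 in Tcf21-traced infarct cells, Pdia3 at -0.31 and Tmed10 at -0.30 in Postn-traced cells, and Manf at -0.34 and Copb2 at -0.31 in scar cells. Lower values occurred in other classes, among them -0.43 for Pdia3 in plain resident and -0.40 for Rpn2 in resident Tcf21-traced cells. The value for Pdia3 includes the cell with myeloid markers and was not taken without it. The collagens of that cell took 0.000539% of TPM, against at least 0.0512% in the rest of its class. Atf4 and Tmed10 did not hold a place across classes, since Atf4 had 0.36 in resident Tcf21-traced cells and Tmed10 had 0.56 in Tcf21-traced infarct cells.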

How the data were processed

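Single cells were sequenced after Fluidigm C1 capture, SMARTer amplification and Nextera tagmentation. The submitters' processing notes name Bowtie 1.0.0, eXpress 1.5.1 and mm10. The table the authors deposited holds log2(TPM + 1) values, 17171 genes by 185 cells. The table's title says FPKM, but each cell sums to 999257 to 1000000 TPM. Its 3 columns of no sample were not used. The methods give only an average of reads per cell, so no precision of a single cell is given.

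Members, role groups and gene lists were chosen with earlier results of these data known. Means of log2(TPM + 1) were compared for genes above 5 TPM in at least 25% of the cells compared. A fixed set of members was named, with those at either end of each comparison or correlation and those beyond both SDs. Hyou1 and Sdf2l1 were named after their values were seen. Correlations of single members used those detected in at least 50% of cells. Alternatives were linear means, medians, pseudocounts of 0.1 and 5, rescaling, centring, other filters, other correlations and cells left out. The calculations were tested on simulated data. Tables and intervals came from pandas 2.3.3 and SciPy 1.17.1, and figures from Matplotlib 3.10.9, under Python 3.11.15 with NumPy 2.4.6.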

Additional observations from a re-analysis of the deposited data

How the results depend on the processing

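The counts of members depended on how cells were averaged and on which cells were used. Taking the log2 of mean TPM left 7 members higher in Postn-traced than in Postn-negative cells, 3 in untraced Postn-positive than in Tcf21-traced cells of Nov4, 9 in Tcf21-traced than in plain resident cells (8 lower, against 24.1% and 16.5% of all genes), 19 in infarct than in resident Tcf21-traced cells (median 0.68), 13 in Postn-traced than in resident Tcf21-traced cells (median 0.44) and 13 in Postn-negative than in plain resident cells. With it Sec31a went to -0.07 and Copa to -0.12 within Jul29, and Sec31a to -0.74 between infarct and resident Tcf21-traced cells.

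Restricting to cells of 2000 to 3000 genes, leaving out cells with cycling or myeloid markers, and leaving out the cell of lowest member share were chosen after seeing the data. The gene range left 12 members higher in Postn-traced than in Postn-negative cells and turned their median to -0.34. It left 22 (median 0.93) for infarct against resident Tcf21-traced cells and 15 (median 0.10) for Postn-traced against resident Tcf21-traced cells, and gave 16 higher and 11 lower within Nov4. Sec23a went to -0.26 within Jul29. Between infarct and resident Tcf21-traced cells Dnajb11 went to -1.0, Ppib to -0.17, Atf4 to -0.21, Creb3l1 to -0.09 and Spcs1 to -0.04.

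Within Nov4 the count was 11 of 48 (22.9%) with a pseudocount of 0.1, against 20.3% of all genes, 3 (6.25%) with 5, against 4.76%, and 10 (20.8%) after centring, against 18.5%. The filter at 50% of cells left 9 of 25 members (36%) for the resident classes, against 26% of all genes. With the whole matrix list in place of the fibrillar collagens, r was 0.11 in Postn-negative and 0.03 in scar cells. In scar cells it was 0.61 from averaged log2 values and -0.31 without the cell of lowest member share, with or without the shallow cells. The cause of these changes was not tested.

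Each class is 1 sample of cells that the labels tie to no mouse, so no difference can be assigned to the class beyond its cells. Injury and capture coincide for every comparison of infarct with resident cells. For Postn-traced against resident Tcf21-traced cells the traced allele differs as well. Gene number stood in for depth, and only 5 Postn-traced cells fell in the shared range. TPM are shares of a cell's mRNA and give neither total mRNA nor protein. Gene-level values do not show Xbp1 splicing or ATF6 cleavage. The members were chosen with earlier results known, and 11 of them had no promoter window to search.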

Other observations

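The member share of TPM was 1.18%, 1.27% and 2.31% in the 3 resident Tcf21-positive cells with Postn mRNA and 0.901% in the 1 other resident cell with Postn mRNA. Ppic was not detected in that last cell and was detected in 2 of the 3.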
